A study of Homo sapiens with 151 samples.

Results

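Alternative promoters were examined here as 37844 windows around transcript starts that lie far from the canonical start of any gene. A member spans 500 bp to each side of the transcription start site (TSS) of a non-canonical transcript of a protein-coding gene in GENCODE 44. It was kept where no canonical TSS, whether of a protein-coding or of an lncRNA gene, lay within 2 kb, and overlapping windows were merged. Of 150338 non-canonical transcripts of protein-coding genes, 58057 started that far away. Their windows belong to 12441 of the 20033 protein-coding genes, and the canonical windows of the same 12441 genes, drawn with the same 500 bp, are the comparison. No peak was used to choose the windows.

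The lists come from HepG2, an established human liver cancer cell line, in which DNA-associated proteins (DAPs) were tagged with FLAG, 1 DAP a sample, and mapped by ChIP-seq against input DNA. Of 151 samples, 24 are inputs and the others have 1 peak list each, of which 6 are non-preferred and were left out of the counts. Of the preferred lists 15 are of non-TF DAPs and the rest of transcription factors (TFs). Every sample is the same line, with no treatment named, and the 24 input libraries serve all lists. The preferred lists hold 195 to 61748 peaks (median 8680). A window was called bound by a list when at least 1 bp of a peak of that list lay in it, and highly bound when at least 31 lists, 25% of the preferred ones, did so. The lists carry no read depth, so a window without a peak is one where no peak was called, and no interval for depth can be given.

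Many mammalian genes have more than 1 promoter, and the choice among them sets the first exon, the untranslated leader and sometimes the start of the protein. HNF4A in the liver and DNMT3A in the embryo are textbook cases. Annotated starts also include transcripts known from a fragment, retained introns and transcripts whose true 5′ end was not found, and these need not mark a promoter at all. Promoters of housekeeping genes are usually rich in CpG dinucleotides, whereas RE1 is the element read by REST, a repressor that keeps neuronal genes silent outside neurons.

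The first sequences below were chosen, after the windows with the most lists or the largest excess had been searched, because they hold RE1. CPLX2, MGA, PPFIA3, ZNF219, ANO7 and DLGAP4 are in the same group without RE1 in its usual spacing, and ANK1 has it but is not printed. All sequences are hg38, given 5′ to 3′ on the strand of the gene. In the first 7 the capitals mark the best match, or one of equal matches, to both boxes of RE1, TTCAGCACC and GGACAG or their reverse complements, which in the usual element are 2 bases apart.
L1CAM: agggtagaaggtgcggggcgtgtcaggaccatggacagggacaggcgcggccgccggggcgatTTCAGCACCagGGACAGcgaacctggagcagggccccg
DLGAP3: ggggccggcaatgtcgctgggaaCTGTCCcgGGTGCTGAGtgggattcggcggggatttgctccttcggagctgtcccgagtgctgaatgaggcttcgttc
PRB2: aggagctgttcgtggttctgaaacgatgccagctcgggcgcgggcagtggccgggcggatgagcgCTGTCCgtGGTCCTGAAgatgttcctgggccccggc
OSBP2: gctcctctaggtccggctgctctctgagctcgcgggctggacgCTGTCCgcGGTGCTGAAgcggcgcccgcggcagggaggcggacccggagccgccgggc
RAB37: ggagtcgCTGTTCctGGTGCTGAAacgctc
ADGRB3: ggtTTCAGCACCtccggcgctGGACAGctc
PDE4C: cgcTTCAGCACCtccggcgcGGACAGctcc
The longer pieces, of L1CAM (chrX:153875485-153875585), DLGAP3 (chr1:34924958-34925058), PRB2 (chr12:11500730-11500830) and OSBP2 (chr22:30802887-30802987), are centred on the median summit, and the 30-base pieces of RAB37 (chr17:74671355-74671384), ADGRB3 (chr6:69233040-69233069) and PDE4C (chr19:18233306-18233335) on the element. The L1CAM and OSBP2 pieces hold both boxes without a mismatch, and the DLGAP3, PRB2 and RAB37 pieces with 1 mismatch. The L1CAM, DLGAP3 and PRB2 pieces each have 2 placements of the boxes within 2 mismatches, of which 1 is in capitals. In ADGRB3 the boxes are exact but 9 bases apart, and in PDE4C they are exact and 8 bases apart.

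The next 3 sequences show heavily bound alternative starts without RE1, with the capitals marking the GC box (GGGCGG or its reverse complement), the AP-1 site (TGACTCA or TGAGTCA) or the cyclic AMP element (TGACGTCA).
SGK1: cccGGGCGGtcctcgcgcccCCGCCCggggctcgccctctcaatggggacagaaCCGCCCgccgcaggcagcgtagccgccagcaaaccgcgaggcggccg
C14orf93: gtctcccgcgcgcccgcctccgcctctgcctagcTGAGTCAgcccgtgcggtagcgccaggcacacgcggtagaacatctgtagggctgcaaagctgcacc
PDE4A: cgtcagtccgcTGACGTCAcgccccaggag
The SGK1 piece (chr6:134174972-134175072) has 3 GC boxes and 16 CpG dinucleotides, the C14orf93 piece (chr14:23007017-23007117) has 1 AP-1 site, and the PDE4A piece (chr19:10416759-10416788) has 1 cyclic AMP element.

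Most alternative windows were bound by no list. At least 1 list had a peak in 5508 of 37844 alternative windows, 14.6% (95% Wilson interval 14.2 to 14.9), against 9435 of 12441 canonical windows of the same genes, 75.8% (interval 75.1 to 76.6). The preferred lists gave a mean of 1.37 lists per alternative window (median 0), against 27.1 lists per canonical window (median 23). Of the bound alternative windows, 1888 (34.3%) had a single list, against 478 (5.07%) of the bound canonical windows. Highly bound windows numbered 480 among the alternative ones, 1.27% (interval 1.16 to 1.39), and 5193 among the canonical ones, 41.7% (interval 40.9 to 42.6). These intervals cover counting error only, since neighbouring windows are not independent.

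**Figure D1:**
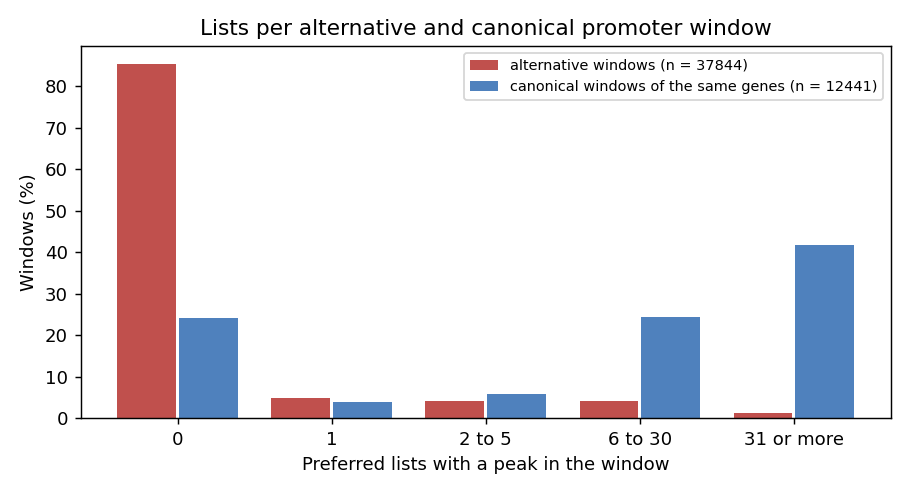
Percent of windows (vertical axis) by the number of preferred lists with a peak in the window (horizontal axis), for alternative windows (red) and canonical windows of the same genes (blue). The red bar at 0 lists stands at 85.4% and the blue one at 24.2%, while at 31 or more lists the bars are at 1.27% and 41.7%.

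The lower share at alternative windows was found in every list. The average list had a peak in 1.13 ± 1.14% of alternative windows and in 22.4 ± 15.3% of canonical windows (SD over the preferred lists). The paired difference was -21.2 ± 14.3 percentage points (SD), below 0 in every list, and a two-sided sign-flip permutation test over lists gave p = 1e-05, the smallest that 100000 draws can give. The lists of 1 line are not replicates of one another, so the p-value speaks of these DAPs. Because every list was below 0, the mean difference within each of the 24 input libraries had to be below 0 as well. It ran from -52.4 to -1.37 points over the 110 lists with 1 input, and some libraries had a single list. Alternative windows took 4.58% of the 1410609 preferred peaks and canonical windows of the same genes 30.6%. Per Mb of window this was 1534 peaks at alternative windows and 34698 peaks at canonical windows.

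All 22 autosomes had fewer lists per alternative window than per canonical window. Chromosome 20 stood apart on both sides: 41.5% of its 749 alternative windows had at least 1 list, against a mean of 15.2 ± 7.64% over autosomes (SD, n = 22), and its canonical windows averaged 50.5 lists, against 28.1 ± 7.79. The lowest alternative share, 7.07%, was on chromosome 18. Without chromosome 20, a setting added after seeing the data, 14.01% of alternative windows had at least 1 list.

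Each alternative window was then set against the canonical window of its own gene, list by list, with an exact McNemar test and Benjamini-Hochberg adjustment over all 37974 pairs. More lists at the alternative window were called at adjusted p under 0.05 in 698 pairs of 598 genes, 1.84% of the pairs, and fewer in 25753 pairs of 8125 genes, 67.8%. The 698 pairs had a median of 25 lists at the alternative window and 1 list at the canonical window, and the canonical window had no list at all in 332 of them. In only 34 of the 698 pairs was the canonical window itself highly bound. In 7023 pairs neither window had a list. The smallest excess that passed was 6 lists. Counted by gene, the best alternative window had more lists than the canonical window in 1282 of 12441 genes (10.3%) and fewer in 8746 (70.3%). A gene has a median of 2 such windows and at most 31, so its best window is a choice among several.

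No list had a peak at the canonical window of 3006 genes. Of these, 671 (22.3%) had a bound alternative window, 211 had one with 10 or more lists and 74 (2.46%) had a highly bound one. Over all 12441 genes, 30.5% had a bound alternative window and 3.61% a highly bound one. At 216 pairs both windows were highly bound, and there a median of 65.0% of the lists at the alternative window were also at the canonical window, while 55.6% of the lists at the canonical window were at the alternative one. How much sharing the rates of the lists alone would give was not tested.

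The 9 alternative windows with most lists had 102 to 117 of them, and 3 of their canonical windows had none. They were picked for these counts, so the adjusted p beside them, taken over all pairs, is a description. RAB37, a small GTPase of vesicle traffic, had 117 lists at its window chr17:74670078-74671680, upstream of the canonical start by 66678 bp, against 51 lists at the canonical window (adjusted p = 3.1e-19, exact McNemar test). All 51 canonical lists were also at the alternative window. CPLX2, a complexin of synaptic vesicle release, had 115 lists against 101 (adjusted p = 2.0e-04), again with every canonical list shared.

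L1CAM, a cell adhesion molecule of neurons, had 113 lists at its alternative window chrX:153875347-153876891, 10326 bp downstream of the canonical start in an exon of the canonical transcript, and 0 lists at the canonical window (adjusted p = 9.1e-31). DLGAP3, a scaffold of the postsynaptic density, had 112 lists against 3 (adjusted p = 5.6e-30). PRB2, a salivary proline-rich protein, had 107 lists against 0 at a start 105474 bp upstream of the canonical one. ADGRB3, an adhesion receptor of the brain, had 102 lists against 0 at a start 597124 bp downstream. At these windows the summits of different lists fell almost on top of each other: their interquartile range was 9 bp at L1CAM and DLGAP3, 14.5 bp at PRB2, 12 bp at ADGRB3 and 15.5 bp at RAB37. The median summit lay 486 bp from the nearest start of the window at DLGAP3, 312 bp at L1CAM, 261 bp at PRB2, 238 bp at RAB37 and 16 bp at ADGRB3. The DLGAP3 and PRB2 transcripts have no defined coding sequence and GENCODE support levels of 3 and 4, below the highest.

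Other windows of the most bound group had wider sets of summits, some of them only slightly. Their interquartile range was 18.5 bp at CPLX2, 27.25 bp at PPFIA3, 89.5 bp at C14orf93 and 117.75 bp at ZNF219. MGA, a MAX-dimerization protein that is itself one of the DAPs, had 105 lists at a start 39271 bp upstream, against 59 lists at the canonical window (adjusted p = 1.2e-12), and the interquartile range of its summits was 378 bp. ZNF219, a zinc finger TF and also a DAP, had 102 lists against 4 (adjusted p = 1.5e-27). PPFIA3, a liprin of the synapse, had 105 lists against 67, and C14orf93 had 99 lists against 50. The lists missing from the top windows recurred. HMGN3 had no peak at any of the 9 most bound windows, and ZNF148 and ZNF284 had none at 8 of them. These lists hold 1134, 2460 and 3499 peaks, below the median list. The MGA list, with 45456 peaks, was missing at L1CAM, DLGAP3 and PRB2, while SCMH1, with 195 peaks, was present at RAB37 and L1CAM. The part of list length was not tested.

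**Figure D2:**
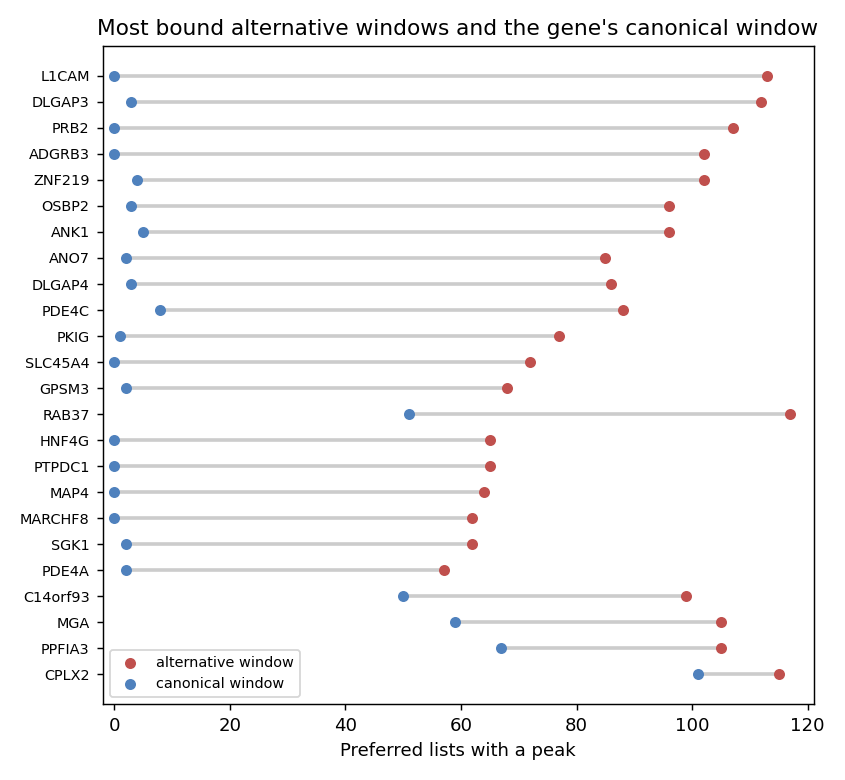
Preferred lists with a peak (horizontal axis) at the alternative window (red) and at the canonical window of the same gene (blue) for the alternative windows with most lists, with the largest excess, or with most lists at a well supported coding start whose canonical window is nearly empty. Every red point lies right of its blue one, from 113 lists against 0 at L1CAM to 115 against 101 at CPLX2.

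The RE1 boxes were counted in all alternative windows, by number of lists. Both boxes in the usual spacing, with at most 2 mismatches over 15 letters on either strand, were in 7 of the 26 alternative windows with over 80 lists (26.9%), in 2 of 137 windows with 51 to 80 lists (1.46%), in 6 of 317 windows with 31 to 50 lists (1.89%) and in 249 of all 37844 windows (0.658%). With the boxes 7 to 9 bases apart, a spacing looked for after the ADGRB3 and PDE4C sequences were seen, the shares were 23.1% of the 26 windows and 1.05% of all. Either form was in 11 of the 26 windows, 42.3%, against 1.67% of all windows. These counts include merged windows, which are longer. In unmerged windows the usual form was in 9 of 234 highly bound ones (3.85%), 0.982% of 3259 with 1 to 30 lists and 0.458% of 24878 without a list. Of the 26 windows 53.8% met the CpG rule given below, against 2.87% of all. The part of window length and base composition in these shares was not tested. The 249 windows with the usual form had a mean of 5.98 lists and 28.9% had at least 1 list, against 1.33 lists and 14.5% for the other alternative windows. Among canonical windows of the same genes, 0.812% held the usual form. SALL1, the longest list, had a peak in 18.1% of the windows with RE1 boxes and in 5.91% of the others, and GLYR1 in 10.8% and 2.70%. In all, 119 lists had a higher share at the windows with RE1 boxes. Of these 249 windows, though, 177 had no list, 15 had at least 31 lists and 7 had over 80. These few windows enter the shares of most lists and the mean of 5.98, so both are a description. How far the 119 lists rest on them was not tested. RCOR3, a CoREST family protein, had a peak in 5.62% and 2.05%, a smaller difference than that of 66 other lists. REST itself is not among the lists used here, and a match of letters is not a measured site.

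A different set of genes had well supported coding starts that were bound while the canonical window was not. For coding transcripts with a complete 5′ end and the highest GENCODE support level, the most bound windows whose canonical window had at most 2 lists were, after L1CAM, those of PKIG, an inhibitor of protein kinase A (77 lists against 1), SLC45A4, a solute carrier (72 against 0), GPSM3, a modulator of G protein signalling (68 against 2), HNF4G, a nuclear receptor related to HNF4A (65 against 0), PTPDC1 (65 against 0), MAP4, which binds microtubules (64 against 0), SGK1, a kinase induced by glucocorticoids (62 against 2), MARCHF8, a ubiquitin ligase (62 against 0), and PDE4A, a cyclic AMP phosphodiesterase (57 against 2). The excess follows from how these windows were picked and is a description. Apart from SLC45A4 and SGK1, which start in an intron of the canonical transcript, these starts lie upstream of the canonical one. MAP4 starts 72856 bp upstream at chr3:48088301-48089772, and MARCHF8 59535 bp upstream at chr10:45593991-45595406. The median summit lay 5 bp from a start in the MAP4 window, 19 bp in the PTPDC1 window, 33 bp in the MARCHF8 window and 35 bp in the PKIG and PDE4A windows. It lay 410 bp away in the GPSM3 window, with 36 summits for 68 lists, and 422 bp away in the HNF4G window, with 40 summits for 65 lists. The merged SGK1 window is 3735 bp long, and its excess was 54 lists with 250 bp to each side.

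Other highly bound alternative windows had far fewer lists than the canonical window. KANSL3, a subunit of a histone acetyltransferase complex, had 33 lists at an alternative start in an intron, against 98 at the canonical window (adjusted p = 8.0e-18). LDHA, which makes lactate, had 32 lists against 95, but only 5 peak summits lay in the alternative window. NDUFAF5, an assembly factor of respiratory complex I, had 36 lists against 95, with 2 summits in the alternative window. FN1, the fibronectin gene and one of the hepatocyte genes listed, had 34 lists at its best alternative window against 85, with 4 summits in it, and CDK5RAP1 had 39 lists against 91, with 10 summits. At the LDHA, NDUFAF5, FN1 and CDK5RAP1 windows most lists overlap with the edge of a peak whose summit lies outside. The KANSL3 window, by contrast, held 36 summits for its 33 lists. HDLBP, CFDP1, SPG7 and PARN had 31 to 35 lists at the alternative window, with 20 to 51 summits, and 83 to 93 lists at the canonical one. Of the 487 pairs with a highly bound alternative window, 285 were called higher at it, 81 lower, and the rest passed neither way. These pairs were picked by the lists at the alternative window, which the test also counts, so the split is a description.

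Genes with textbook alternative promoters, and hepatocyte genes, were counted as lists. Of 20 metabolic and hormone genes, 19 had an alternative window, and of their 89 pairs 2 were called higher at the alternative window and 63 lower. Of 25 growth and development genes, 24 had one, with 8 of 143 pairs higher and 93 lower. Of 32 hepatocyte genes, 21 had one, with 0 of 52 pairs higher and 27 lower by the exact McNemar test. The best alternative window had a median of 4, 3 and 1 lists in these lists of genes, against 12, 12.5 and 20 lists at the canonical window. Over all 12441 genes the medians were 0 and 23, and over all pairs 1.84% were higher and 67.8% lower. None of these counts shows that a list differs from other genes.

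HNF4A, the nuclear receptor that sets the hepatocyte program, was the hepatocyte gene with the most bound alternative window. Its window chr20:44400739-44401901, 45540 bp downstream of the canonical start and at a coding transcript, had 73 lists, against 88 at the canonical window, with 56 lists at both (adjusted p = 0.064, exact McNemar test). When the summit had to lie in the window the difference was -26 lists and passed (adjusted p = 0.000893, exact McNemar test). ACACA, the acetyl-CoA carboxylase of fat synthesis, had 52 lists at its best alternative window against 36 (adjusted p = 0.021, exact McNemar test), a call lost with peaks of score 830 or more. Of the 14 alternative windows of ACACA, 1 was called higher and 13 lower. CYP19A1, the aromatase, had 29 lists against 0 (adjusted p = 8.4e-09, exact McNemar test) at a start 20104 bp downstream. Of the 5 alternative windows of CYP19A1, 1 was called higher and 0 lower.

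SREBF1, the TF of lipid synthesis, went the other way, with 26 lists against 67 (adjusted p = 1.3e-08), a call lost with 250 bp to each side. At their best alternative windows PPARG had 35 lists against 23, with 9 summits in the window, and PPARGC1A 26 against 25, and neither pair passed. The PPARG window is at the start of a retained intron transcript. This PPARG pair passed with peaks of score 830 or more and with 1000 bp to each side. Of all their alternative windows, 11 of 12 at PPARG and 4 of 5 at PPARGC1A were called lower, and 0 higher. IGF2 had 24 lists against 29, and IGF1 had 0 lists at both windows. No peak was called at the alternative windows of NR3C1, GHR or THRB, where the canonical windows had 12, 10 and 25 lists.

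Of the 6 alternative windows of DNMT3A, a DNA methyltransferase, 1 was called higher and 5 lower. The higher one, at a start 89614 bp downstream, had 81 lists against 60 (adjusted p = 0.0038, exact McNemar test), with 48 at both. The call was lost with 1000 bp to each side, and the excess was 75 lists in place of 21 when the summit had to lie in the window. RUNX1, the blood cell TF, had 32 lists at its best alternative window 160612 bp downstream, against 0 (adjusted p = 1.1e-09), and 4 of its 10 alternative windows were called higher. APC, the brake on Wnt signalling, had 38 lists at a start 30363 bp upstream, against 10 (adjusted p = 1.2e-07). CUX1 had 28 lists against 1, at the start of a retained intron transcript beyond the end of the canonical transcript. NFIA, a TF of the nuclear factor I family, had 33 against 18 (adjusted p = 0.0090, exact McNemar test, lost with peaks of score 830 or more). These are the best windows of each gene. Of the 9 alternative windows of NFIA 1 was called higher and 7 lower, and of the 2 of APC 1 higher and 1 lower. Of the 5 of CUX1 1 was higher and 0 lower. DNMT1 had no list in any of its 12 alternative windows, against 52 at the canonical one. BCL2L1, an inhibitor of apoptosis, had 58 lists against 78 (adjusted p = 0.012, exact McNemar test, also lost with peaks of score 830 or more), with 19 summits in the alternative window. Its alternative transcript has no defined coding sequence.

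Of the hepatocyte genes, SERPINA1, which encodes alpha-1 antitrypsin, had 10 lists against 63 (adjusted p = 9.7e-14), F2, prothrombin, 1 against 65, and TF, transferrin, 1 against 74. ALB, albumin, had 10 lists at its best alternative window against 13, and AFP, alpha-fetoprotein, 9 against 6, and neither pair passed. All 6 alternative windows of ALB and all 10 of FN1 had a peak of at least 1 list.

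The lists of DAPs were also looked up at their own genes. Of the preferred DAPs, 89 had alternative windows, and 6 had their own list at one: AFF1, BAZ2A, MGA, SMAD7, ZFP90 and ZNF219. At the canonical window 21 of the 89 had their own list. This was 2.04% of the 294 alternative windows of these genes and 23.6% of their canonical windows, close to the 1.13% and 22.4% of the average list.

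Windows upstream of the canonical start were bound more often than those inside or beyond the gene. Windows upstream of the canonical start (2590 windows) were bound by at least 1 list in 30.5% of cases and those inside or beyond the gene (35211 windows) in 13.4%. The average list had a peak in 4.07 ± 3.54% of upstream windows and in 0.908 ± 0.971% of internal ones (SD over lists), a difference of 3.16 ± 2.60 points that was above 0 in every list (sign-flip permutation test, adjusted p = 1e-05, Benjamini-Hochberg over 4 comparisons). Upstream windows were 6.84% of the members and 30.4% of the highly bound ones. Inside the gene, 14.7% of windows in an intron of the canonical transcript were bound (interval 14.3 to 15.2) and 9.61% of those in an exon (interval 9.10 to 10.1).

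Windows were bound more often at coding transcripts and at complete ones. Windows with a coding transcript were bound in 1.91 ± 1.80% of cases by the average list and the others in 0.7005 ± 0.789%, a difference of 1.21 ± 1.03 points, above 0 in every list. Windows with a transcript whose 5′ end is complete had 1.24 ± 1.25% and those with incomplete transcripts alone 0.444 ± 0.511%, a difference of 0.800 ± 0.760 points, above 0 in 118 lists. Both comparisons had an adjusted p of 1e-05 by the sign-flip permutation test. Retained introns were bound by at least 1 list in 10.9% of 11490 windows, transcripts subject to nonsense-mediated decay in 11.2% of 2647 and transcripts with no defined coding sequence in 13.1% of 10224, against 19.5% of 13435 windows with a coding transcript. At coding starts with a complete 5′ end and the highest support level, 26.6% of 2517 windows were bound and 4.89% highly bound. These 2517 windows are 6.65% of the members and held 25.6% of the highly bound ones.

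**Figure D3:**
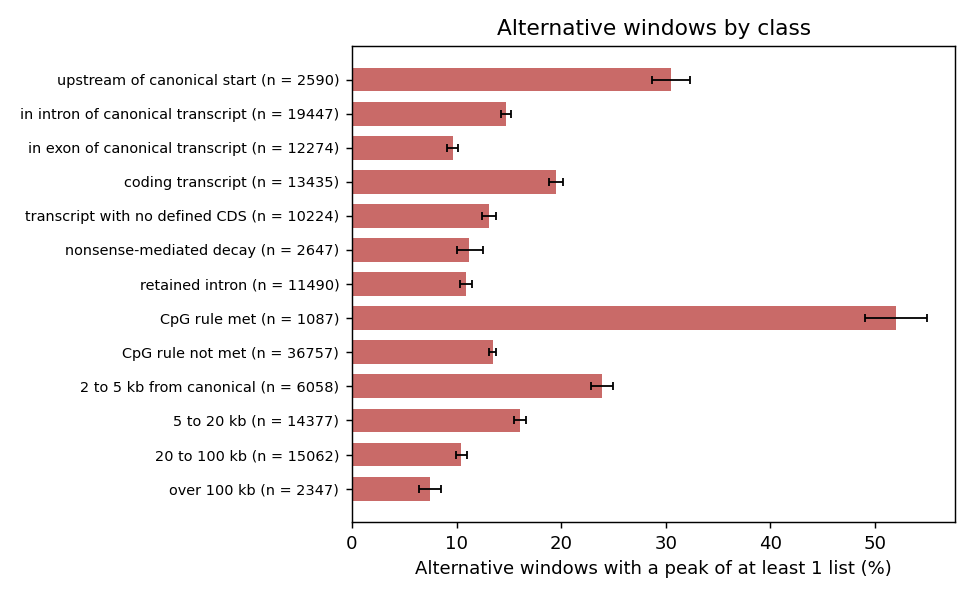
Percent of alternative windows with a peak of at least 1 list (horizontal axis) in classes of place, transcript, CpG content and distance (vertical axis, n windows each); each bar is a share and its error bar the 95% Wilson interval, for counting error alone. The CpG-rich windows reach 52.0% and windows over 100 kb away 7.41%.

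CpG-rich alternative windows were bound more often than the others. Only 1087 alternative windows (2.87%) met the CpG rule, a GC share over 0.5 and an observed over expected CpG ratio over 0.6, against 9094 of the 12441 canonical windows. At least 1 list was at 52.0% of these 1087 windows and at 13.4% of the other alternative windows, and 14.9% and 0.865% were highly bound. The average list had a peak in 9.44 ± 7.62% of CpG-rich alternative windows and in 0.883 ± 0.971% of the others, a difference of 8.56 ± 6.75 points, above 0 in every list (sign-flip permutation test, adjusted p = 1e-05). CpG-rich canonical windows were still bound more often, 88.7%, with a mean of 34.0 lists against 11.4 lists at CpG-rich alternative windows. Alternative windows outside the rule averaged 1.07 lists, against 8.33 lists at canonical windows outside it. Of the 480 highly bound alternative windows, 318 did not meet the rule. The 480 had a mean GC content of 57.9 ± 8.15% (SD over windows), unbound alternative windows 44.6 ± 9.21%, and highly bound canonical windows 64.0 ± 6.64%. The 4 comparisons between classes overlap, and which property the peaks follow was not tested.

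Bound shares were lower at longer distances. Of windows 2 to 5 kb from the nearest canonical start 23.9% had a peak, of those 5 to 20 kb away 16.1%, of those 20 to 100 kb away 10.5%, and of those over 100 kb away 7.41%. Windows merged from 4 or more distinct starts were bound in 33.3% of cases and windows with 1 start in 12.3%, though the merged ones are longer, with a median of 1812 bp. Grouped by the lists at the canonical window of the gene, 15.3% of alternative windows were bound where the canonical window was highly bound, 15.5% where it had 1 to 30 lists and 11.4% where it had none.

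Summits gathered at some classes of start. Over alternative starts more than 5 kb from any canonical start, with 1 start in the window, the mean density of summits within 500 bp of the start was 1.72 times that beyond 2 kb (24200 starts), against 29.3 times at canonical starts (12441 starts). It was 8.30 times at CpG-rich starts (429 starts), 3.12 times at coding starts with a complete 5′ end (3754 starts), 1.47 times at starts outside the CpG rule (23771 starts) and 1.02 times at starts of retained introns alone (8699 starts). The peak of the density lay in the 100 bp just before the start for coding starts, at 2.65 summits per 100 bp, 1000 starts and list, and in the 100 bp just after it for canonical starts, at 53.5.

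**Figure D4:**
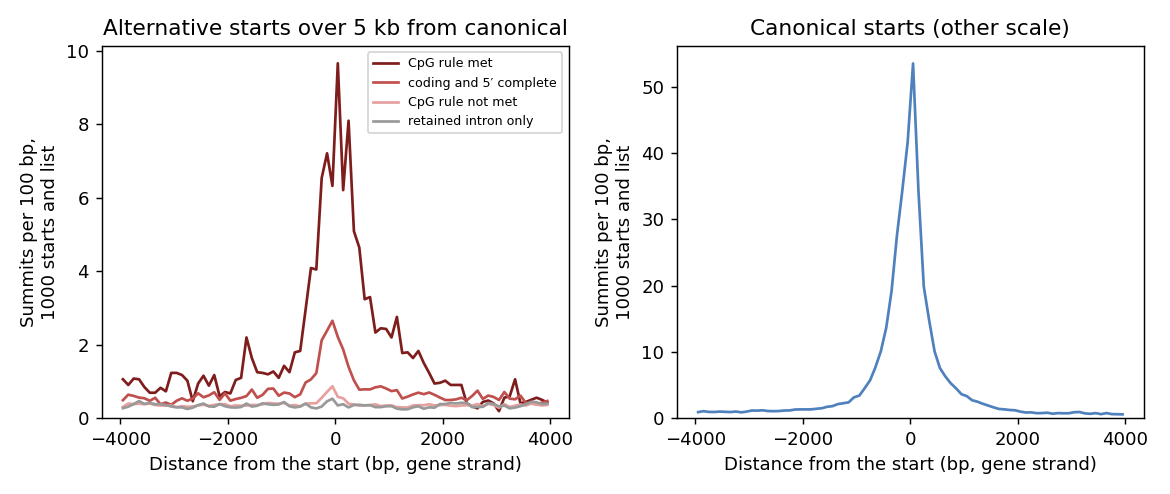
Density of peak summits (vertical axis, summits per 100 bp, 1000 starts and list) against the distance from the start along the gene (horizontal axis, bp), at alternative starts of 4 classes (left) and at canonical starts of the same genes (right, on another scale). CpG-rich alternative starts reach 9.65 and canonical starts 53.5. The line of retained introns reaches 0.530 in the 100 bp just before the start, against a mean of 0.357 in its flanks.

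Short sequence words were counted in unmerged windows, on either strand. There the GC box GGGCGG was in 58.5% of 234 highly bound alternative windows, 36.9% of 3259 windows with 1 to 30 lists and 18.5% of 24878 windows without a list, against 94.4% of 5193 highly bound canonical windows. The ETS word CCGGAAG was in 13.7%, 7.09% and 4.06% of these alternative windows, against 35.7% of the canonical ones. The AP-1 word TGACTCA was in 23.5%, 17.7% and 14.8% of these alternative windows, but in fewer of the highly bound canonical ones, 7.01%. The word TATAAA was in 20.1%, 34.2% and 55.0%, against 13.7%. Over all 28371 alternative windows of this length and all 20033 canonical windows of protein-coding genes, the shares were 20.96% and 76.9% for the GC box, 15.2% and 9.65% for AP-1, 4.49% and 22.4% for the ETS word and 52.3% and 23.3% for TATAAA. Base composition differs between these sets, and its part in these shares was not tested.

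The DAPs were unequal in how far they kept to canonical starts. The measure is the log2 ratio of a list's percent of alternative windows to its percent of canonical windows, with 0.5 added to the number of windows with a peak and 1 to the total. It was below 0 in every preferred list, with a median of -4.67, and the median list covered 25.4 times the share of canonical windows that it covered of alternative ones. Among the 113 lists with at least 1000 peaks, TRIM24, a non-TF cofactor of nuclear receptors, was nearest to even (log2 ratio -2.62), followed by ZFHX3 (-3.23), FOSL1, a subunit of AP-1 (-3.25), HIC2 (-3.26) and ZNF865 (-3.31). TRIM24 had a peak in 155 alternative windows and in 313 canonical ones. The lowest ratios were those of THAP1 (-5.73), ELK4, an ETS factor (-5.69), FAM200B (-5.66), PBX3 (-5.62) and CAMTA1 (-5.55). THAP1 had 94 alternative and 1654 canonical windows. Longer lists had higher ratios (Pearson's r = 0.264 and Spearman's rho = 0.462 between log10 peak number and the ratio over all preferred lists, and r = 0.541 and rho = 0.631 over the 113 lists of at least 1000 peaks, as a description, since they share the windows and the cell line).

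**Figure D5:**
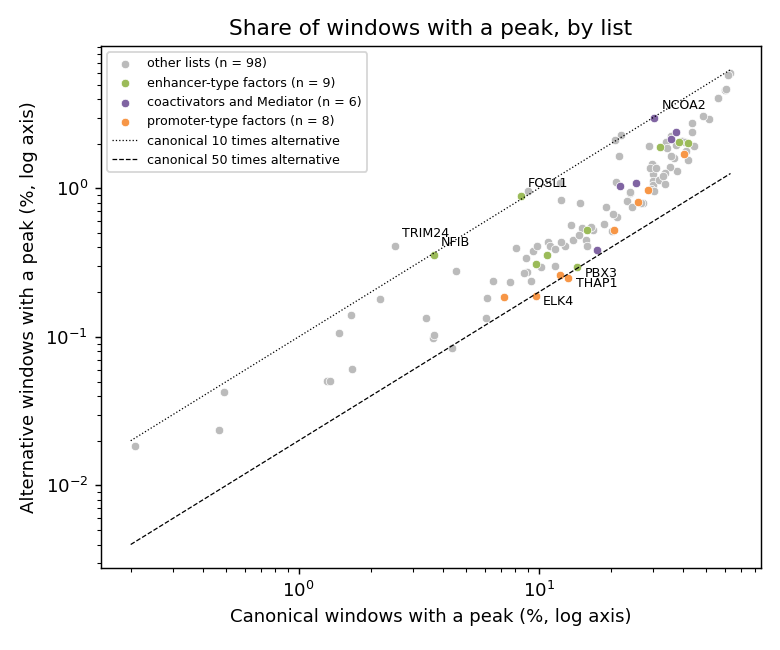
Percent of alternative windows (vertical axis) and of canonical windows (horizontal axis) with a peak, both on log axes, for each preferred list, coloured by DAP group, with lines where the canonical share is 10 and 50 times the alternative one. TRIM24, FOSL1 and NFIB lie near or above the upper line and THAP1 and ELK4 under the lower one.

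The log2 ratio was higher for factors known from enhancers than for factors known from promoters. The 9 enhancer-type factors (FOSL1, NFIB, MEIS1, MEIS2, FOXC1, NR1H2, FOXO4, TEAD2 and PBX3) had a mean log2 ratio of -4.42 ± 0.78, and the 8 promoter-type factors (E4F1, SIX5, ELK3, ZNF148, KLF15, CAMTA1, ELK4 and THAP1) -5.25 ± 0.41 (SD over lists). The difference was 0.83 (two-sided exact permutation test, p = 0.017). The DAP groups were written from textbook roles with earlier results of these data known. The p-values of the comparisons between groups of lists were not adjusted for one another. The groups overlap, since PBX3 at -5.62 lies among the promoter-type factors and NFIB is at -3.37. Median list length was 5511 and 5120 peaks. The call was lost without the 21 lists of 1 input library, which hold 9 of these 17 factors (difference 0.73, p = 0.21, exact), and without the 10 lists of another, with MEIS1 and THAP1 (0.72, p = 0.056, exact).

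The 6 coactivators and Mediator subunits averaged -4.30 ± 0.73, which was 0.94 above the promoter-type factors (two-sided exact permutation test, p = 0.012). This group too was written with earlier results known, and its p-value is unadjusted. NCOA2, a coactivator of nuclear receptors, was highest at -3.34, followed by MED12 (-3.97), AFF1 (-4.05), NCOA1 (-4.40), KAT6A (-4.55) and MED13L (-5.51). Their lists are longer, with a median of 16425 peaks against 5120, and the part of list length in the difference was not tested. The TF lists averaged -4.56 ± 0.61 and the 15 non-TF lists -4.30 ± 0.71, a difference of -0.26 that did not pass (permutation test, p = 0.13), though it was -0.45 (p = 0.015) without the same 21 lists. Within the 8 input libraries that hold both kinds it ran from -0.93 to 0.44.

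The lists found at highly bound windows were compared one by one. The 480 alternative windows had a mean of 48.2 lists and the 5193 canonical windows 53.4. HIC2, a zinc finger repressor, had a peak in 64.4% of the alternative and 43.6% of the canonical windows, ZFHX3 in 31.04% and 19.4%, NCOA2 in 72.1% and 61.4%, TRIM24 in 15.8% and 5.47%, and ZMYM2 in 53.5% and 43.6%. STAT5A had a peak in 58.1% and 77.2%, HES4 in 52.5% and 70.7%, ZNF558 in 49.0% and 66.4%, and SRY in 62.3% and 78.5%. The windows were picked by the number of these same lists, so these shares are a description, and 29 lists were higher at the alternative windows.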

How the data were processed

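Peak lists of FLAG-tagged DAPs in HepG2 were used, with the deposited positions, summit offsets and scores. The authors ran the pipeline of the ENCODE project themselves, and per the labels the build was hg38. Aligner and peak caller: not given in the sources used here. The deposited score runs from 540 to 1000 and served as a threshold alone. Replicates are not listed apart. The reference (hg38, GENCODE 44) has the build of the lists, and 0 peaks ran past a chromosome end. Which lists are preferred, and which DAPs are TFs, was taken from the study's files and supplementary tables. A canonical transcript is the one tagged as Ensembl canonical. Lists were compared by sign-flip and permutation tests with 100000 draws, small groups by exact permutation tests, and pairs by exact McNemar tests, in Python 3.11.15 (scipy 1.17.1, pandas 2.3.3, numpy 2.4.6). The code was tested on simulated data. Named windows were those with most lists, with the largest excess either way, with most lists at well supported coding starts whose canonical window had at most 2 lists, and members of 3 gene lists; a few of these are not reported here. Alternatives changed the overlap, score, window, distance, transcripts and lists used. The members and lists were chosen with earlier results of these data known. Expression, accessibility and reporter data were not used here.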

Additional observations from a re-analysis of the deposited data

Results flagged for a closer look

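The enhancer-type factors differed from the promoter-type factors in the log2 ratio of alternative to canonical percent by 0.83 (exact permutation p = 0.017), and the coactivators and Mediator subunits by 0.94 (exact permutation p = 0.012). Both were picked out because a test of the difference itself passed, and their limits are given with them in the report. In none of the 3 DAP groups did a single list stand far enough from the rest to be picked out.

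The 6 non-preferred lists entered no comparison, and 5 of them were picked out because they had peaks in more than 3 alternative windows, the upper limit for a count of 0. EP300, an acetyltransferase known from enhancers, had a peak in 717 alternative windows (1.89%) and in 18.4% of canonical windows. TSC22D2 had 420 alternative windows, TUT4 248, ZNF431 511 and ZZZ3 343. GPBP1L1, with 73 peaks in all, had 2.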

How the results depend on the processing

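Each difference between windows, classes or DAP groups kept its direction and its side of the threshold under the settings run for it, 11 for complete against incomplete transcripts, which 3 transcript choices left without a value, and 14 or 15 for the others. The share of alternative windows with at least 1 list, 14.6%, and with at least 31 lists, 1.27%, moved to 12.1% and 1.00% when the summit had to lie in the window, to 12.1% and 1.00% with at least 0.5 of the peak in it, to 9.30% and 0.436% with a score of 830 or more, to 12.05% and 0.928% with 250 bp to each side, to 19.05% and 1.80% with 1000 bp, to 12.9% and 1.05% over 5 kb from canonical starts, to 12.3% and 0.825% in unmerged windows, to 15.3% and 1.41% without incomplete transcripts, to 19.4% and 2.81% at support level 1, to 24.03% and 3.76% in GENCODE basic, and to 12.95% and 1.10% without the 5 longest lists. The second share was taken at 25% of the lists in use, so fewer than 31 lists were enough without the 5 longest lists. Without chromosome 20, chosen after seeing the data, the first was 14.01%. Pairs with more lists at the alternative window numbered 376 in unmerged windows, 187 at support level 1 and 279 in GENCODE basic, and those with fewer 2924 at support level 1 and 2839 in GENCODE basic. These settings keep fewer windows and so test fewer than the 37974 pairs. The counts are therefore not to be read against 698 and 25753, and their shares were not computed.

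Leaving out the lists of each of the 24 input libraries in turn gave -22.2 to -20.6 points for alternative minus canonical windows. It gave 662 to 700 pairs with more and 25303 to 25754 with fewer lists. The share of windows with at least 1 list ran from 13.4% to 14.6%, and the highly bound share from 1.20% to 1.42%. Highly bound here means 25% of the lists left, which was 31 lists or fewer. The DAP differences ran from 0.70 to 0.93 for enhancer-type, from 0.76 to 1.04 for coactivators and from -0.45 to -0.10 for TF lists, with permutation p of 0.011 to 0.214 (exact), 0.00699 to 0.0444 (exact) and 0.0146 to 0.573. Of 66 named pairs that passed, 10 lost the call under some setting, and none turned. HNF4A, PPARG, ACACB, ERBB2, LPIN1, PAX6, FOXP1 and NR1H4, which had not passed, passed under some setting. Depth is unknown, so an empty window says only that no peak was called.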
